A study of Drosophila melanogaster with 3 samples.

Results

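The genes that encode the subunits of Mediator and TFIID, the large complexes that deliver RNA polymerase II to promoters, were examined as binding sites of CG12155-eGFP. They were the protein-coding genes whose symbol starts with MED or Taf followed by a digit, plus skd, kto, CycC, Cdk8 and Tbp, which gave 45 of the 13945 protein-coding genes on the main chromosome arms. The members were 25 genes of core Mediator (7 of the head, 9 of the middle, 8 of the tail and the scaffold MED14), 4 of its kinase module, 15 of TFIID, and Taf12L, which the symbol pattern takes in and which is named as a testis paralog of Taf12. The symbol ix, which encodes the tail subunit MED29, is not matched by the pattern and was kept apart.

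The embryos came from 1 Drosophila melanogaster strain, CG12155-GFP, that carries an insertion making a CG12155-eGFP fusion. Chromatin of whole mixed-sex embryos, 0 to 24 h old, was sheared to 200 to 800 bp and precipitated through the GFP tag in 3 biological replicates, which form 1 group. The labels name no driver, copy number or rescue of the tagged gene. All embryonic tissues and a whole day of development were pooled in each sample, and no untreated or control sample was analysed here. Each replicate therefore gives an average over cell types, and occupancy in few cells cannot be told apart from weak occupancy in many.

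Mediator carries signals from DNA-bound activators to RNA polymerase II. Its head and middle contact the polymerase, its tail receives many activators, MED14 runs through the complex as a backbone, and the kinase module docks reversibly and blocks polymerase contact while docked. TFIID is built of TATA-binding protein and TBP-associated factors (TAFs), recognises the core promoter and places TBP there to start assembly of the preinitiation complex. Both complexes are used in nearly every cell, and their genes are broadly expressed.

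Each deposited list holds regions with a summit and a signal whose scale is not stated. Signals served to order the regions of 1 list, with rank 1 the strongest. The relaxed lists hold 30000 regions in replicate 1, 29643 in replicate 2, 30000 in replicate 3 and 30000 in the pooled replicates. The pooled relaxed list is labelled as peaks and background, so an entry far down a relaxed list need not be a binding site. The optimal list holds the 5202 strongest pooled regions. Library depth is unknown, since no read counts are given. A gene was called bound when an optimal summit lay within 500 bp of any of its transcription start sites. The same call was made in a replicate from its own 5202 strongest regions.

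Sequences are given near the summits of the strongest bound members and at 2 members with no summit. They are from the RefSeq copy of the dm6 assembly, read 5′ to 3′ on the strand of the gene. Each is the longest stretch outside annotated exons in a window of 100 bp either side of the summit, or, for genes with no summit, from 150 bp before to 50 bp after the start. Capitals mark matches, on either strand, to any of 7 promoter motifs: TATCGATA (bound by DREF), GGTCACAC (Ohler motif 1, bound by M1BP), GTATTTT, the E-box CAGCTG, CATCNCTA, the GAGA-factor element GAGAGAG and the TATA box, written TATAAA.
skd, 3L:21026205-21026402, minus strand: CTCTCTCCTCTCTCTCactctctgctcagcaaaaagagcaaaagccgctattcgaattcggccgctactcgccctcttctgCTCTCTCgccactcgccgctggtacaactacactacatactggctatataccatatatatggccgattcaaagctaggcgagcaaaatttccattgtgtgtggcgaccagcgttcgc
MED27, 3R:5654896-5655096, plus strand: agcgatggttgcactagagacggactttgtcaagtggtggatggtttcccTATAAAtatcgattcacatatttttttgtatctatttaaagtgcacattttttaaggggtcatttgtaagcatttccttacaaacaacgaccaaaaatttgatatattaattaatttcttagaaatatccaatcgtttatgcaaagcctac
MED30, 3L:654179-654362, minus strand: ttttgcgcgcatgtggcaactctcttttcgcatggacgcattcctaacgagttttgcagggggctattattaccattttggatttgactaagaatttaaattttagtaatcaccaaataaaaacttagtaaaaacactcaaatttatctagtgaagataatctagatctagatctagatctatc
Taf2, 3L:9888684-9888761, minus strand: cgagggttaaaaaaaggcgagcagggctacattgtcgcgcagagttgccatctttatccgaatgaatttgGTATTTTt
Taf4, 3L:16113592-16113789, plus strand: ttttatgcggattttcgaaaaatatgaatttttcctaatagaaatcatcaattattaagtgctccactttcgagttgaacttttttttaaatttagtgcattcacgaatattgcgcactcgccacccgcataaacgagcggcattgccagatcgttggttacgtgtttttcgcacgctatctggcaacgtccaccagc
MED18, X:1865836-1865908, plus strand: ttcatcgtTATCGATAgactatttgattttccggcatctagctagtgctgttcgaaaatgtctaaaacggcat
Taf12, 3R:11679691-11679742, minus strand: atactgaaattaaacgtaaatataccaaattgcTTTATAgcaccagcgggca
The sequence at skd holds 4 match positions of GAGAGAG, which overlap in part, and 51% of its bases are G or C. The sequences at MED27 and MED30 are rich in A and T, with 32.3% and 33.7% G or C. MED27 has 1 match to TATAAA, and MED30 and Taf4 match none of the 7 motifs. The Taf2 and MED18 sequences are the whole space between the member's start and the start of the gene that faces it, CalpB and Gcna. For Taf2 the summit itself lies outside the printed bases, in the 5′ UTR of CalpB. The sequence at Taf12 is that between its start and the start of Ho. Taf5, the strongest TFIID gene, lies on an arm whose sequence is not shown, so the TFIID genes taken were the next in rank, Taf2, Taf4 and Taf11. For Taf11 only 11 bases of the window lie outside exons and none is shown.

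The optimal set held a summit at 19 of the 45 members (42.2%), against 26.2% of all protein-coding genes. In the replicates' own strongest regions the members bound numbered 23 in replicate 1, 18 in replicate 2 and 18 in replicate 3, against 26.5%, 25.1% and 25.4% of all genes. The members' share averaged 43.7% ± 6.42 (SD, n = 3), against 25.6% ± 0.736 for all genes. The members exceeded the other genes by 24.7, 15 and 14.7 percentage points in the 3 replicates, a mean of 18.1 ± 5.72 points. This difference was larger than the spread between replicates, and replicate 1 gave its highest value. That spread shows how repeatable the lists are, not how a share over 45 genes varies with the choice of genes.

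Most members that were strong in 1 replicate were strong in more, but no more often than genes at large. Among the 45 members, 14 were in the strongest regions of all 3 replicates, 5 in those of 2, 7 in those of 1, and 19 in those of none. Among all 13945 genes these were 2802, 734, 854 and 9555. In the pooled relaxed list, which includes background regions, 38 members (84.4%) had a promoter summit, against 54.2% of all genes. In all 4 relaxed lists 28 members had one, as did 5739 of all genes. Only MED18, Taf12 and Taf12L had none in any list, against 4583 of all 13945 genes. The best-ranked summits of the 19 bound members had a median rank of 1356, against 2132 for all bound genes, and 12 of the 19 lay in the stronger 2601 peaks, as did 2146 of the 3647 bound genes. Just inside the limit of 5202 was MED22 at pooled rank 4518, and just outside it was Taf1 at rank 5411.

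**Figure D1:**
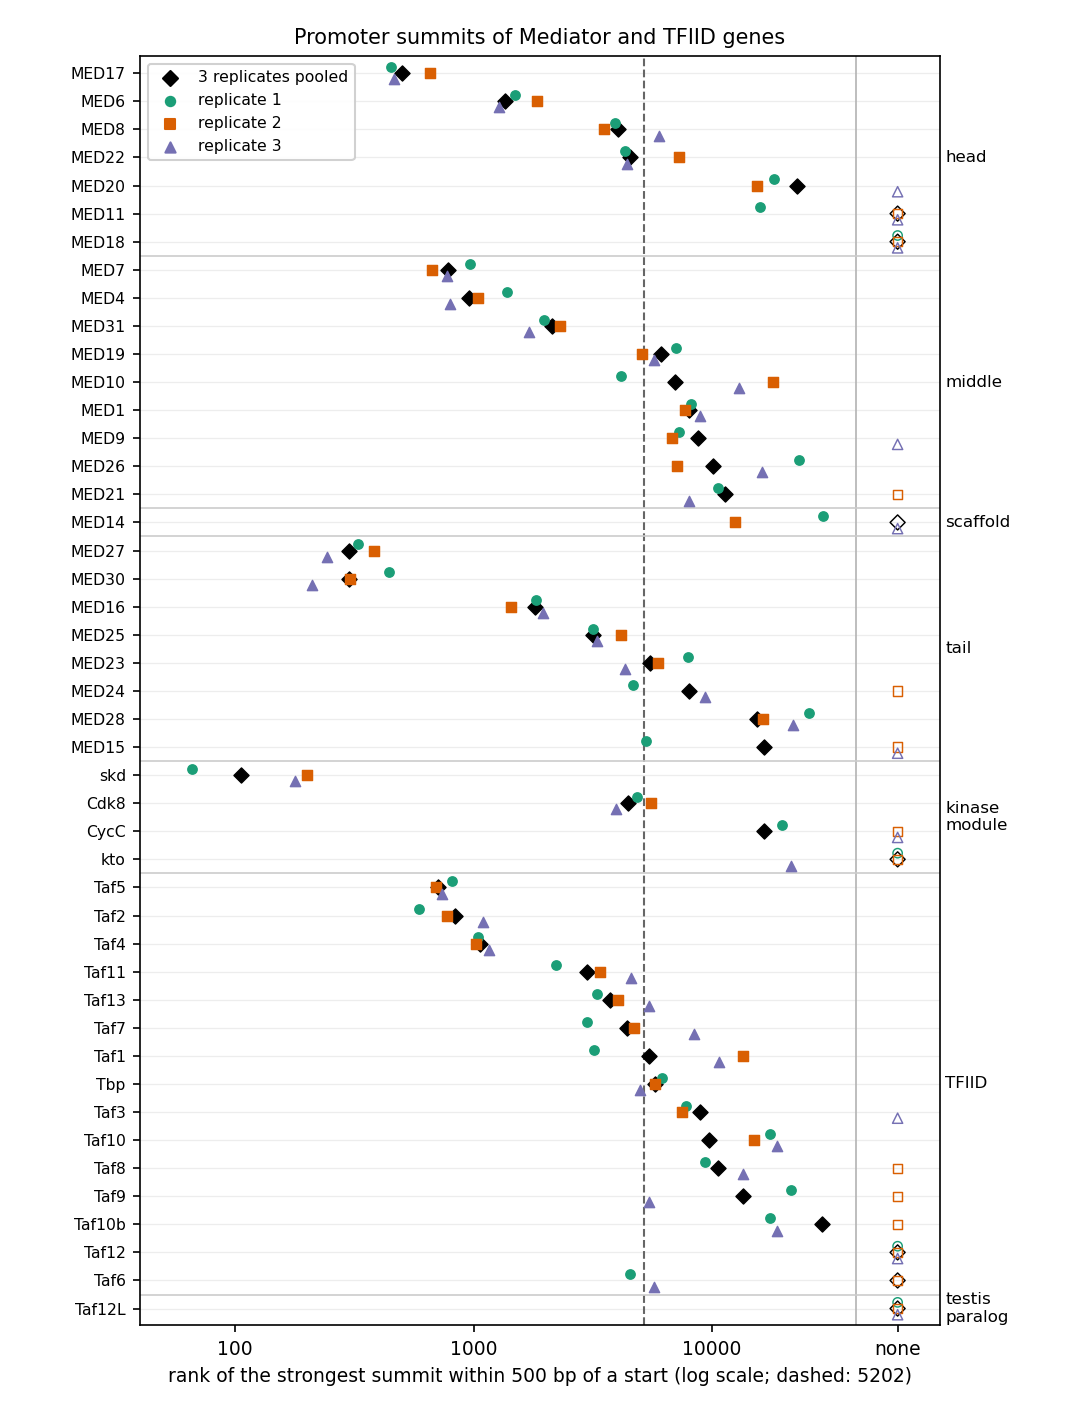
Rank of the strongest summit within 500 bp of a start for each of the 45 members (x axis, log scale, rank 1 strongest), in the pooled list (diamonds) and in each replicate, grouped by module; open symbols at the right have no summit in that list. The 19 bound members lie left of the dashed line at 5202 in the pooled list, and the replicates are close for the strongest members and scatter or drop out for the weak ones.

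In the head, 4 of 7 genes were bound. MED17, the subunit around which the head is built, lay at ranks 448, 656 and 465 in replicates 1 to 3 and 498 in the pooled list (3R:18188851-18189147). MED6, which helps hold the head to the middle, lay at 1485, 1836 and 1271, with pooled rank 1356 (3R:9767787-9767910). These ranks fell inside the strongest 5202 in every replicate. MED8, which in yeast tethers the MED18 and MED20 pair to the head, lay at 3905, 3509 and 5991, with pooled rank 4040 (2R:20326913-20327342). MED22, the partner of MED11, lay at 4320, 7281 and 4384, with pooled rank 4518 (X:927873-928302). MED8 missed the limit in replicate 3 and MED22 in replicate 2. The partners of these subunits ranked far below the limit or were not listed. MED20 was at pooled rank 22713, MED11 was listed only in replicate 1 at rank 15854, and MED18 in no list.

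In the middle, 3 of 9 genes were bound, all of them in all 3 replicates. MED7, the hinge partner of MED21, had ranks 961, 669 and 776 and pooled rank 780 (3R:10760891-10761320). MED4 had ranks 1386, 1040 and 799 and pooled rank 959 (3L:7250470-7250899). MED31, which binds the amino-terminal part of MED7 in yeast, had ranks 1979, 2307 and 1698 and pooled rank 2125 (3R:4641502-4641931). The other 6 all had pooled summits that ranked below the limit. MED19 was closest to it at pooled rank 6095, with 7025, 5082 and 5706 in the replicates. MED10 was inside the limit in replicate 1 alone, with ranks 4163, 18067 and 13010 and pooled rank 6980. MED1, a contact of nuclear receptors in mammals, was at 8038, MED9 at 8709, MED26, which in human cells recruits elongation factors, at 10081 with replicate ranks of 23103, 7155 and 16255, and MED21 at 11295. The scaffold gene MED14 had no pooled summit, and ranks of 29049 in replicate 1 and 12494 in replicate 2 were its only entries.

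In the tail, as grouped here, 4 of 8 genes were bound, and 2 of them were the strongest of the core. MED27 had ranks 327, 383 and 242 and pooled rank 300 (3R:5654821-5655182). MED30 had ranks 441, 304 and 210 and pooled rank 301 (3L:654081-654414). They stood next to each other in rank, at separate promoters on 3R and 3L. MED16 had ranks 1819, 1439 and 1944 and pooled rank 1807 (2R:22182853-22183282). MED25, a target of the viral activator VP16 in human cells, had ranks 3175, 4153 and 3283 and pooled rank 3174 (3R:20008436-20008865). All 4 were inside the limit in every replicate. Of the unbound, MED23, another activator target in mammals, had pooled rank 5514 and ranks 7901, 5924 and 4321. MED24 had pooled rank 8014, with 4637 in replicate 1, no summit in replicate 2 and 9342 in replicate 3. MED28 was at pooled rank 15361. MED15, a subunit contacted by many activators from yeast to animals, was at 16483, and the summit of an optimal peak of rank 722 lay 529 bp from its start, just past the window.

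In the kinase module the genes spread over nearly the whole range. skd, which encodes MED13, the subunit that links the module to the core, was the strongest of all 45 members, with ranks 66, 200 and 178 and pooled rank 106 (3L:21025107-21026727). That summit lay in an intron of skd, at −98 bp from an internal start, where negative is upstream. Further optimal summits lay at −408 bp (rank 1427) and −299 bp (rank 1808) from starts of the gene. Cdk8, the kinase itself, had ranks 4859, 5532 and 3959 and pooled rank 4445 (3L:9838549-9838978), and missed the limit in replicate 2. CycC, its cyclin, was at pooled rank 16558 and at 19601 in replicate 1 alone. kto, which encodes MED12, the subunit that activates the kinase, was listed in replicate 3 alone at rank 21380.

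In TFIID, 6 of 15 genes were bound. Taf5, a WD40-repeat subunit of the inner part of the complex, had ranks 812, 698 and 738 and pooled rank 710 (2R:10879664-10879883). Taf2, which contacts initiator DNA together with Taf1, had ranks 592, 771 and 1091 and pooled rank 836 (3L:9888620-9888884). Taf4, which has a histone fold and holds the complex together, had ranks 1045, 1018 and 1158 and pooled rank 1066 (3L:16113509-16113760). These 3 were in the strongest regions of every replicate, with ranks within each gene close to each other. Taf2 had a second optimal summit, of rank 973, at −393 bp from the start. The best summit of replicate 1 lay nearer to that one, at −456 bp, than to the stronger pooled summit at −85 bp. Taf11 and Taf13 form a histone-fold pair, and their genes had similar values. Taf11 had ranks 2211, 3403 and 4582 and pooled rank 3000 (2L:9763243-9763672). Taf13 had ranks 3277, 4025 and 5415 and pooled rank 3738 (2L:20093809-20094238). Taf7, a regulator of Taf1, had ranks 3001, 4692 and 8426 and pooled rank 4378 (3R:7907304-7907733). For Taf11, Taf13 and Taf7, replicate 1 was the strongest and replicate 3 the weakest, and Taf13 and Taf7 missed the limit in replicate 3.

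The other 9 TFIID genes were unbound, and several were near the limit. Taf1, the largest subunit, had pooled rank 5411, with 3206 in replicate 1, 13520 in replicate 2 and 10705 in replicate 3. Tbp, which bends the TATA box, had pooled rank 5787, with 6144, 5769 and 4985 in replicates 1 to 3. Taf6, the histone-fold partner of Taf9, had no pooled summit, yet ranks of 4518 in replicate 1 and 5697 in replicate 3. The call at these 3 genes differed between replicates. Taf3 was at pooled rank 8906, Taf10 at 9670, Taf8 at 10587, Taf9 at 13439 and Taf10b at 28980. Taf12, the histone-fold partner of Taf4, had no summit in any list, while Taf4 was bound in all 3 replicates. Taf12L, the testis paralog, also had none.

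The modules did not differ in share beyond the spread between replicates. Core Mediator was bound at 11 of 25 genes (44%), with 13, 11 and 11 in the replicates and a mean of 46.7% ± 4.62 (SD, n = 3). The kinase module was bound at 2 of 4 (50%), with 2, 1 and 2 in the replicates and a mean of 41.7% ± 14.4. TFIID was bound at 6 of 15 (40%), with 8, 6 and 5 in the replicates and a mean of 42.2% ± 10.2. Core minus TFIID was 4 points in the optimal set and 4.44 ± 6.01 over the replicates, with −1.33 points in replicate 1. Kinase module minus core was 6 points in the optimal set and −5 ± 12.8 over the replicates. Kinase module minus TFIID was 10 points and −0.556 ± 16. With 4 genes, a change at 1 gene moves the kinase module's share by more than any of these mean differences.

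**Figure D2:**
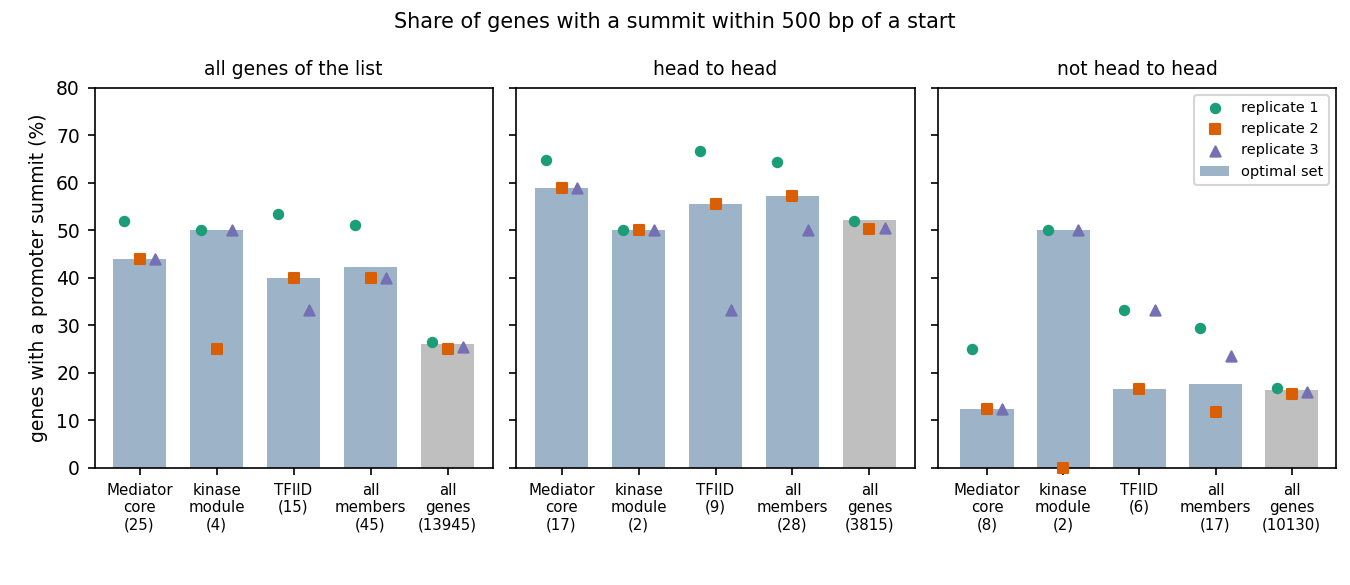
Share of genes with a promoter summit (y axis, percent) in the optimal set (bars) and in each replicate's own strongest regions (symbols), for the modules, all 45 members and all 13945 genes, with the number of genes in parentheses; the panels hold all genes, genes facing another start within 500 bp, and the rest. The members sit at 42.2% against 26.2% for all genes in the left panel, at 57.1% against 52.2% in the middle panel and at 17.6% against 16.4% in the right panel.

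Many members share their promoter region with a neighbour. A gene was called head to head when another protein-coding gene starts on the opposite strand within 500 bp upstream. This held for 28 of the 45 members (62.2%), against 27.4% of all genes. Of the head-to-head members 16 of 28 were bound (57.1%), against 52.2% of all head-to-head genes. In the replicates 18, 16 and 14 were bound, a mean of 57.1% ± 7.14, against 50.9% ± 0.977 for all head-to-head genes. Of the other 17 members 3 were bound (17.6%), against 16.4% of all genes that are not head to head. In the replicates these were 5, 2 and 4, a mean of 21.6% ± 8.99, against 16.1% ± 0.653.

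Within these classes the members were close to other genes. Head-to-head members minus other head-to-head genes gave 12.3, 6.87 and −0.409 points in the replicates (mean 6.26 ± 6.39). Members outside the class minus other genes outside it gave 12.6, −3.81 and 7.59 points (mean 5.46 ± 8.41). Neither difference was larger than its spread, unlike the pooled one. Head-to-head genes bound were 10 of 17 in core Mediator, 1 of 2 in the kinase module and 5 of 9 in TFIID. The bound genes outside the class were MED4 in core Mediator (1 of 8), Cdk8 in the kinase module (1 of 2) and Taf4 in TFIID (1 of 6). A single start was annotated for 38 of the 45 members (84.4%), against 73.5% of all genes.

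The summits lay just upstream of the members' starts. All 19 best summits were upstream of the nearest start of the member, from −322 to −19 bp, against 88% of those of all bound genes. These sets differ in make-up, since 16 of the 19 were head to head, against 1990 of the 3647 bound genes. At MED6 and Taf7, as at skd and Taf4, the nearest start was internal and the summit lay inside the gene. The median was −119 bp, against −121 bp for all bound genes. In the replicates the members' median was −129, −118.5 and −90.5 bp, against −116, −130 and −118 bp for all bound genes. By module it was −143 bp in core Mediator, −96 bp in the kinase module and −126.5 bp in TFIID. Most strong summits kept their place: Taf4 lay at −98 bp from an internal start, in an intron of the gene, and its replicates overlay each other. Taf7 was an exception, with its summit at −119 bp in the pooled list and at 117 bp, downstream, in replicate 2. Taf7 has 2 annotated starts and each distance is from the nearer one, so these values can refer to different starts.

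**Figure D3:**
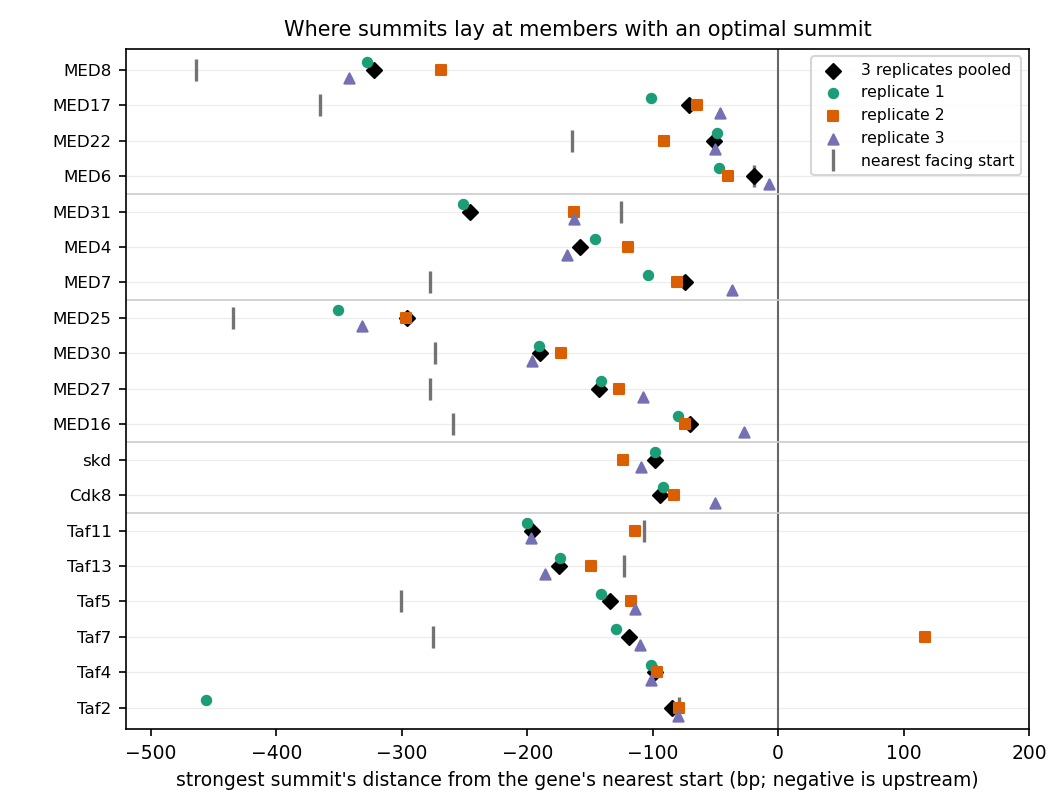
Position of the strongest summit relative to the nearest start of each of the 19 bound members (x axis, bp, negative is upstream), pooled and in each replicate; vertical ticks mark the facing start of the neighbour where it is within the plotted range. Pooled summits lie between −322 bp (MED8) and −19 bp (MED6). The largest departures in plotted distance are replicate 1 of Taf2 at −456 bp and replicate 2 of Taf7 at +117 bp. The Taf7 value may be measured from the other of its 2 starts.

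A summit between opposed starts does not say which gene it belongs to. At 15 of the 19 bound members another protein-coding start lay within 500 bp of the summit, and at 9 the summit was nearer to that start. MED6 and Naa80, which encodes an amino-terminal acetyltransferase, start 19 bp apart, and the summit fell on the start of Naa80. The Taf2 summit lay 6 bp from the start of CalpB, a calpain protease gene, in its 5′ UTR. The Taf11 summit lay 31 bp from a start of und, also in its 5′ UTR, and the Taf13 summit 52 bp from a start of nesd. The MED30 summit was 84 bp from Rev1, a translesion DNA polymerase gene, MED31 121 bp from CG9775, MED27 135 bp from elm, MED25 139 bp from Hs6st and MED8 142 bp from CG8929. MED25 had a second optimal summit, of rank 4280, at −97 bp from its own start. The summit was nearer the member at MED17 (facing CG12321), MED7 (facing Cap-H2, a condensin subunit gene), MED16 (CG11170), MED22 (CG43867), Taf5 (facing Pex6, a peroxisome gene) and Taf7 (EMC1). Among the 16 bound head-to-head members the summit fell between the opposed starts at 11. It did not at Taf2, Taf11, Taf13 and MED31, where it lay past the facing start. At skd the facing gene, Pdss2, lies 481 bp upstream of the other start, away from the strongest summit.

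The spacing of the opposed starts divided the head-to-head members. This division was chosen after the values were seen, so it is given as counts with no test. With starts up to 100 bp apart 2 of 11 members were bound (18.2%), namely MED6 and Taf2, against 44.2% of all head-to-head genes of that spacing. At 101 to 200 bp 4 of 5 were bound (80%), against 40.8% of all, and at 201 to 500 bp 10 of 12 (83.3%), against 58.4% of all. In replicates 1 to 3 the members bound were 3, 2 and 3 of the 11 with close starts, 4, 3 and 3 of the next 5, and 11, 11 and 8 of the 12 with wide spacing. For other head-to-head genes the replicate means at these spacings were 43.4% ± 2.21, 40.1% ± 2.67 and 56.8% ± 0.753, a rise past 200 bp only. The bound head-to-head members had starts 19 to 481 bp apart with a median of 274.5 bp, and the unbound 26 to 415 bp with a median of 62 bp. The difference between members over 100 bp and members up to 100 bp was 64.2 points, and 61, 64.2 and 37.4 points in the replicates.

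The unbound members with close starts face neighbours of varied function. CycC faces UQCR-C1, a respiratory-chain gene, at 26 bp. Taf10 and Taf10b face each other at 45 bp, so they are 2 of the 11 and share 1 promoter. MED10 faces PDCD-5 at 46 bp, MED20 faces Trf, the gene of a TBP-related factor, at 47 bp, and Taf12 faces Ho, a haem oxygenase gene, at 53 bp. MED23 faces Gmer at 71 bp, MED18 faces Gcna at 74 bp and MED28 faces CG4553 at 88 bp. The unbound members with wider spacing were MED9, which faces the nucleoporin gene Nup75 at 115 bp, Taf6, which faces the trithorax-group gene ash1 at 333 bp, and MED19, which faces CG7430 at 415 bp. Split at 120 bp in place of 100 bp, the counts were 3 of 13 (23.1%) and 13 of 15 (86.7%), against 44.3% and 54.8% of other head-to-head genes.

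**Figure D4:**
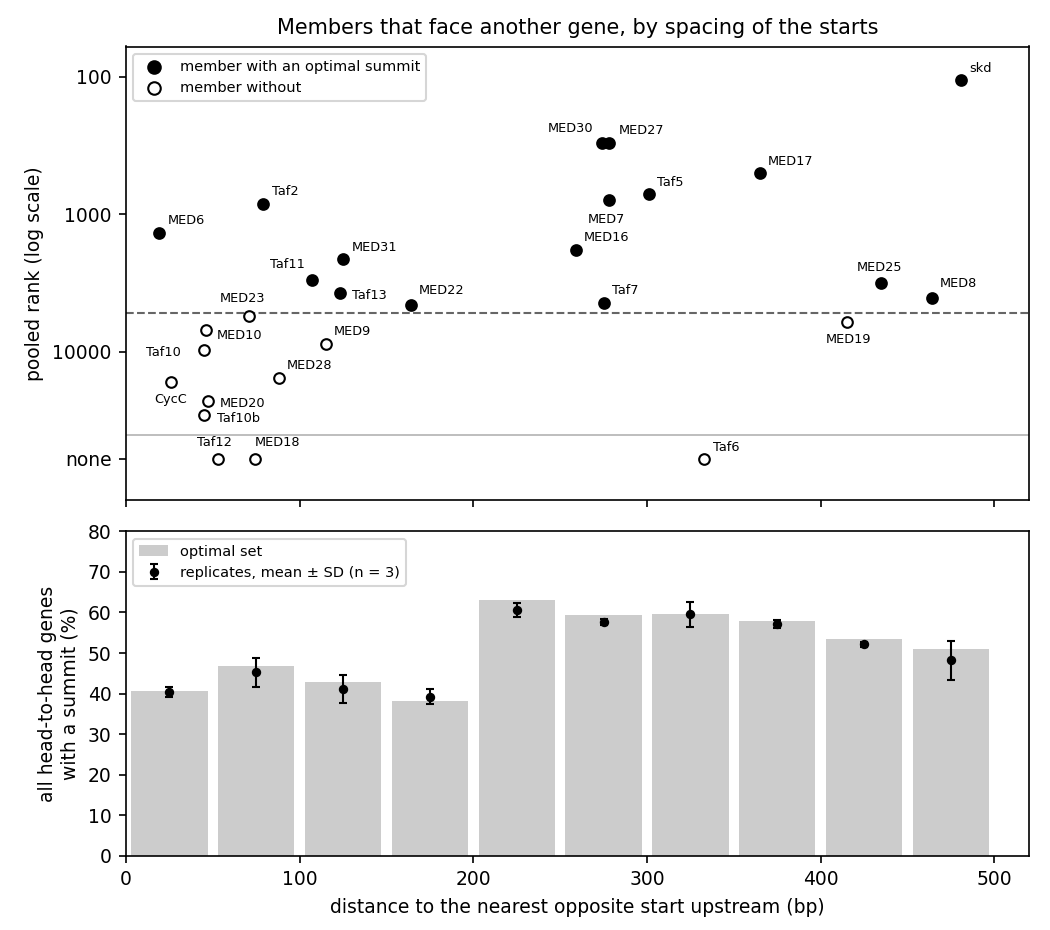
Upper panel, pooled rank (y axis, log scale, strongest at the top) of the 28 head-to-head members by distance to the facing start (x axis, bp), filled where bound, with the dashed line at rank 5202. Lower panel, share of all head-to-head genes bound by 50 bp of spacing, which is 38.1% just below 200 bp and 63.2% just above it; among the members 2 of 11 were bound up to 100 bp.

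The promoters of the members hold GGTCACAC, GTATTTT, TATCGATA and CATCNCTA more often than promoters at large, in bound and unbound members alike. The shares of all genes given here were not split by head-to-head class, which takes in 62.2% of members and 27.4% of all genes. Taf10 and Taf10b share 1 promoter, and both are counted for CATCNCTA, CAGCTG and TATAAA. Promoters were read from 250 bp before to 50 bp after the 5′-most start, on both strands, and none of the 7 motifs contains another. The members with GGTCACAC were 12 of 45 (26.7%), against 7.71% of all genes, with 4 of the 19 bound and 8 of the 26 unbound. GTATTTT was in 16 members (35.6%), against 16.3%, with 8 bound and 8 unbound. TATCGATA was in 9 (20%), against 9.37%, with 4 bound and 5 unbound. CATCNCTA was in 6 (13.3%), against 6.43%, with 2 bound and 4 unbound. TATAAA was in 24 (53.3%), against 45.9%, with 11 bound and 13 unbound. CAGCTG was in 8 (17.8%), against 17.7%, with 2 bound and 6 unbound, and GAGAGAG in 1 unbound member (2.22%), against 5.87%. Of the bound members 21.1% had GGTCACAC, 42.1% GTATTTT, 21.1% TATCGATA, 10.5% CATCNCTA, 57.9% TATAAA and 10.5% CAGCTG. Of all bound genes these shares were 12.2%, 21.4%, 15.9%, 13.8%, 46.6% and 22.5%.

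Around the summits most motifs were in fewer bound members, but the window there is shorter than the promoter window. Among all bound genes each motif was also less frequent there. In the 100 bp either side of the best summit TATAAA was in 10 of the 19 bound members (52.6%), against 36% of all bound genes, and GTATTTT in 4 (21.1%), against 14.3%. TATCGATA, GGTCACAC and CATCNCTA were each in 1 member (5.26%), against 9.98%, 6.33% and 10.1% of all bound genes. GAGAGAG was in 1, skd, shown above with its repeats, against 2.85%, and CAGCTG in none of the 19, against 12.8%. TATAAA is short and common in sequence rich in A and T, and a match is not a site in use.

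Genes of the machinery that works with Mediator and TFIID are given beside the members, with 26.2% of all genes, 52.2% of head-to-head genes and 16.4% of the others bound. Of the genes of the other general transcription factors 12 of 18 were bound (66.7%, replicate mean 64.8% ± 6.42), 9 of 11 where head to head and 3 of 7 elsewhere, led by Ssl1 of TFIIH at rank 31, TfIIA-S at 861 and TfIIA-L at 866. Of the RNA polymerase II subunit genes 7 of 12 were bound (58.3%, replicate mean 58.3% ± 8.33), 6 of 7 where head to head and 1 of 5 elsewhere, led by Polr2B at rank 295. Of the pausing and elongation genes 12 of 15 were bound (80%, replicate mean 71.1% ± 10.2), 7 of 9 where head to head and 5 of 6 elsewhere, among them Trl at 480, which encodes GAGA factor, and Nelf-E at 600. SAGA shares TAFs with TFIID. Of the SAGA and ATAC coactivator genes 11 of 23 were bound (47.8%, replicate mean 42% ± 10.9), led by Gcn5 at 578. These were 9 of 15 where head to head and 2 of 8 elsewhere. Chrac-14 and D12, both counted as bound, face each other at 40 bp and share the summit of rank 4125. None of the 4 testis TAF genes (can, mia, nht and sa), neither of the TBP-related genes Trf and Trf2, and not ix was bound.

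The members' share stayed above that of all genes under each definition of bound tried. The shares that follow were not split by head-to-head class, which takes in 62.2% of members and 27.4% of all genes. In the optimal set the members were at 57.1% against 52.2% within that class, and at 17.6% against 16.4% outside it. Outside it core Mediator was at 12.5%, below the 16.4%, TFIID at 16.7% and the kinase module at 50%. With a window of 200 bp 17 members were bound, against 19.6% of all genes, and with 1000 bp 20 were, against 29.2%. With the stronger 50% of optimal peaks 12 members were bound, against 15.4%. With peaks that overlap strong regions of all 3 replicates 14 were, against 20.1%. The 5 bound members whose peaks were overlapped in only 2 replicates were Taf13, Taf7, Cdk8, MED22 and MED8, and MED22 had the weakest pooled rank of the 19.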

How the data were processed

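CG12155-eGFP ChIP-seq peak lists on dm6 were used: 3 relaxed lists, 1 for each replicate, 1 relaxed list on pooled replicates and 1 optimal list. Each deposited list gives a signal per region that the authors computed; its scale, the aligner, the caller and its settings were not given in the sources used here. The dm3 lists and the control were not used here. Replicates are separate biological samples per the labels. Depth is unknown (no read counts are held), and values are unweighted.

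Start sites are those of Ensembl release 115, and bases are those of RefSeq's dm6 copy, in which all 45 members' annotated start codons read ATG. Regions were ranked by signal within a list. Means ± SD are over 3 replicates, each reduced to its 5202 strongest regions. No test across genes was run, since there is 1 group and genes are not replicates. The members, lists and motifs were chosen with earlier results of these data known. Every member is named with its state; sequences were taken for the 3 strongest Mediator and 3 strongest TFIID genes and for 2 genes with no summit, leaving out genes on 2R, whose sequence is not shown; this passes over Taf5. Python 3.11.15, pandas 2.3.3 and numpy 2.4.6 were used, and the promoter calls were tested on simulated data. Alternatives were the window, the start, the overlap, the strength, the support and each replicate left out of the support.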

Additional observations from a re-analysis of the deposited data

How the results depend on the processing

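Of the alternative values for the counts of bound members and the core-minus-TFIID difference, 37 stayed within 1.5 times the count or within the spread between replicates, 12 moved and 2 reversed. With the stronger 50% of peaks, 12 of 45 members, 1 of 4 kinase-module genes and 3 of 15 TFIID genes were bound, and core minus TFIID, whose alternatives were all added after seeing the data, was 12 points against 4. With support by all 3 replicates, 1 kinase-module gene was bound. Dropping head-to-head genes was chosen after seeing the data; 3 of 17 members were then bound, 1 in each module, and core minus TFIID reversed to −4.17 points. It also reversed, to −4 points, with a window of 200 bp. Leaving out 1 replicate meant keeping the optimal peaks that strong regions of both other replicates overlap. The pooled list itself was unchanged, so counts could not rise. They were then 14 to 17 members, 9 to 10 core genes, 1 to 2 kinase-module genes and 4 to 6 TFIID genes. Among all genes 21.2% to 21.8% were then bound, and core minus TFIID was 0 to 13.3 points. The bound members facing another gene were 16, and 17 with starts within 1000 bp. The median summit distance ranged from −134 to −98 bp. No paired analysis was possible because there is 1 group. Unknown depth limits what the absence of a summit at a member shows.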

Other observations

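The 26 unbound members lay 529 to 2020341 bp from the nearest optimal summit, with a median of 3892.5 bp, against a median of 9608.5 bp for all 10298 unbound genes. The difference was not tested. MED15 was the closest at 529 bp and MED21 the farthest, and for Taf12L the distance was 108698 bp. The strongest peak of the whole optimal set, rank 1, is the optimal summit nearest to MED9, at 6791 bp from its start, which was singled out after its rank was seen. None of the 26 has an optimal summit inside the gene. Such a summit would have to lie more than 500 bp from every start, and the count for all unbound genes is not given.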
